A study of Homo sapiens with 15 samples.

Results

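HuCCT1 is an established human line from a cholangiocarcinoma, which is cancer of the biliary epithelium, and the comparison described here sets its libraries labelled SNRPD2KO against those labelled Ctrl, across all genes. Each group held 3 libraries, so 6 of the 15 libraries of the series enter it, all chosen by their labels, and the other 9 come from the embryonic kidney line HEK293T. KO stands for a knockout made with the nuclease CRISPR-Cas9, here aimed at SNRPD2, and Ctrl for control. The sources used here do not give the guide, whether knockout cells were a clone or a pool, or what the control cells carried, and both groups grew in the same serum-containing medium. Total RNA was sequenced after removal of ribosomal RNA, and values are CPM (counts scaled to the library's size, after TMM normalization). Nothing in the labels says that replicates came from separate cultures, so p values measure the spread between these libraries, which may be technical.

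Total counts were 15580342 to 16772238 in the libraries labelled SNRPD2KO and 13776166 to 16795618 in Ctrl. Of 35595 genes in the table, 15007 had enough counts to be tested. The line carried its bile duct epithelium markers in every library: the keratin KRT7 stood at 4988, 4697 and 5119 CPM in SNRPD2KO and 4674, 4619 and 4492 in Ctrl, and the adhesion protein EPCAM at 109, 106 and 116 CPM in SNRPD2KO and 111, 113 and 113 in Ctrl, neither past the threshold. Of 11 tested bile duct markers MUC1 (1.46) and ANXA4 (0.67) rose, SOX9 (-0.49), KRT18 (-0.30) and CFTR (-1.29) were among those that fell, and SPP1 was at 0 in SNRPD2KO and at or below 0.381 CPM in Ctrl. All 12 summed to 12012 to 12969 CPM in SNRPD2KO and 12352 to 12644 in Ctrl. Among 7 endothelial markers the sums were at most 2.02 CPM, and among 7 measured leukocyte markers 1.72 to 2.10 CPM in SNRPD2KO and 3.66 to 4.26 in Ctrl, mostly CD14, with PTPRC at no more than 0.0573 CPM. The 9 fibroblast markers summed to 21.4 to 23.6 CPM in SNRPD2KO against 12.3 to 14.2 in Ctrl, mostly COL1A1, while COL3A1 and PDGFRA were at 0 in SNRPD2KO and at or below 0.381 in Ctrl. Of 9 hepatocyte markers 5 were measured, and they summed to 53.2 to 62.3 CPM against 76.6 to 86.3, mostly SERPINA1. Mitochondrially encoded genes took 0.866% to 1.37% of counts in SNRPD2KO and 1.63% to 1.76% in Ctrl. Genes typed as small nuclear, small nucleolar, small Cajal body or miscellaneous RNA took 1.19% to 1.73% and 1.79% to 2.52%. These 4 types were counted together, so that is not the share of small nuclear and nucleolar RNAs alone. The part of both shares in the differences below was not tested, and in bulk RNA fewer cells of a type and less RNA per cell cannot be told apart.

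SNRPD2 encodes SmD2, a protein of the ring that binds the spliceosomal small nuclear RNAs (snRNAs) except U6 and U6atac. The ring is loaded onto U1, U2, U4 and U5 RNA by the SMN complex, and the finished particles remove introns from pre-mRNA. The series asks how SmD2 relates to pseudouridine, the isomer of uridine that synthases such as PUS7 and the box H/ACA particles make in RNA, including snRNA. Sterol synthesis, in which several results below fall, is governed by SREBP transcription factors that SCAP escorts out of the endoplasmic reticulum when sterols are scarce and that INSIG proteins hold back when they are plentiful.

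The targeted gene ran against the labels. SNRPD2 (ENSG00000125743.11, chromosome 19, 45687460 to 45692569 on the minus strand, build hg38) stood at 259.9, 286 and 319 CPM in SNRPD2KO and 159.9, 146 and 157 in Ctrl, with all 3 SNRPD2KO values above all 3 Ctrl values (log2 fold change 0.90, SE 0.07, adjusted p = 1.8e-06). All directions below follow the labels, "higher" meaning higher in the libraries labelled SNRPD2KO, and they cannot be read as the effect of losing SNRPD2. SNRPD2 ran against the labels in HEK293T as well, at 303, 280.4 and 244 CPM in SNRPD2KO and 189, 163 and 175 in Ctrl. In the deposited counts of both lines, columns labelled SNRPD2KO carry the letter C and those labelled Ctrl the letter S. The HEK293T columns labelled PUS7 carry P. What the letters stand for was not established. Whether the labels of the groups are exchanged was not tested, and an exchange would turn the sign of every HuCCT1 difference below. PUS7 stood at 27.9, 33.7 and 32.1 CPM in SNRPD2KO and 28.4, 29.5 and 29.4 in Ctrl and did not pass (log2 fold change 0.10, SE 0.08, adjusted p = 0.34).

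SNRPD2 was not alone among its neighbours in being higher. Of 9 other tested genes that start within 100 kb of it, 7 were higher and none lower, with a median log2 fold change of 0.77, beside 32.7% higher and 24.9% lower over chromosome 19. QPCTL (ENSG00000011478.13, chromosome 19, 45692403 to 45703989), a Golgi glutaminyl cyclase whose start lies within the SNRPD2 gene on the opposite strand, stood at 16.9, 13.3 and 16.3 CPM in SNRPD2KO and 4.32, 3.96 and 4.04 in Ctrl (log2 fold change 1.92, SE 0.14, adjusted p = 6.2e-07). The microtubule protein EML2 stood at 25.2, 27.1 and 27.7 CPM in SNRPD2KO and 14.4, 10.7 and 11.4 in Ctrl (1.13), and the ubiquitin ligase subunit FBXO46 at 25.1, 22.5 and 21.7 CPM in SNRPD2KO and 10.7, 12.97 and 11.6 in Ctrl (0.97). For these 3 genes the groups did not overlap. DMPK, the myotonic dystrophy kinase (0.77), and DMWD (0.39) were also higher. The calls of EML2-AS1 (0.83) and the homeobox gene SIX5 (0.56) were lost on leaving out single libraries, at adjusted p up to 0.11 and 0.096 (edgeR). GIPR (0.57) and ENSG00000279407 (-0.24) did not pass. Within 500 kb, 16 of 24 were higher and 4 lower, and within 1000 kb 27 of 48 and 9. Whether counting used the strand is not given in the sources used here, so reads over the overlap of SNRPD2 and QPCTL cannot be assigned to 1 of them with certainty.

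Across the genome, 8591 of 15007 tested genes (57.2%) differed at an adjusted p under 0.05 in edgeR's quasi-likelihood test. Higher genes numbered 4327 (28.8%) and lower genes 4264 (28.4%), and the median log2 fold change of all tested genes was 0.0025. More than 2-fold differences were found for 1235 higher and 977 lower genes, and more than 4-fold for 124 and 164. The 3 libraries of one group all lay above or all below those of the other for 9527 genes (63.5%), 4787 above and 4740 below. With so large a background, the share of a gene list that changed has to be read against these percentages. Correlations of log2 CPM across genes, which are not independent replicates, were 0.987 to 0.989 within groups and 0.953 to 0.957 between them.

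**Figure D1:**
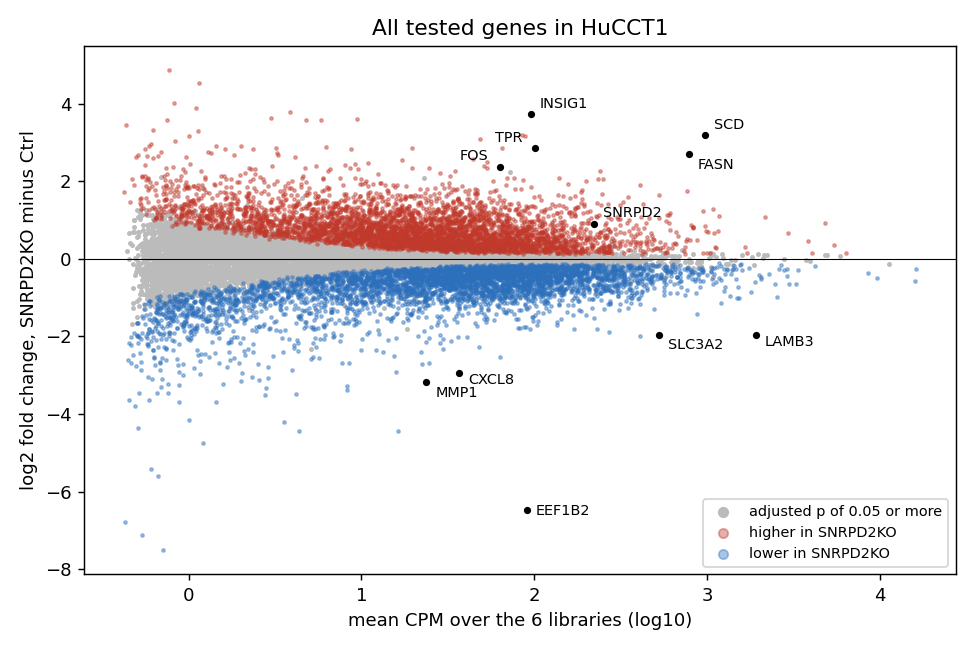
Log2 fold change (SNRPD2KO minus Ctrl, vertical axis) against mean CPM over the 6 libraries (log10, horizontal axis), 1 point a gene, red where higher and blue where lower at an adjusted p under 0.05. Of 15007 genes, 4327 are red and 4264 blue, and INSIG1 (3.74), SCD (3.20) and FASN (2.70) lie high while EEF1B2 (-6.47) rests on 1 library.

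The 12 leading higher genes, chosen by fold change among genes of at least 5 CPM in the higher group, included several of lipid synthesis. INSIG1 (ENSG00000186480.13, chromosome 7, 155297776 to 155310235), which retains SREBP in the endoplasmic reticulum and is itself an SREBP target, stood at 184, 185 and 164 CPM in SNRPD2KO and 13.2, 13.6 and 13.2 in Ctrl (log2 fold change 3.74, SE 0.07, adjusted p = 2.8e-10). SCD, the desaturase that makes monounsaturated fatty acids, stood at 1760.4, 1769 and 1717 CPM in SNRPD2KO and 183, 201 and 187 in Ctrl (log2 fold change 3.20, SE 0.05, adjusted p = 1.2e-10). Both genes were about level within each group and far apart between groups. LSS, the lanosterol synthase, was more variable, at 116, 71.1 and 74.2 CPM in SNRPD2KO and 9.47, 6.34 and 15.5 in Ctrl (3.08), and ACSS2, which makes acetyl-CoA from acetate, stood at 115, 109 and 118 CPM in SNRPD2KO and 15.8, 15.05 and 16.4 in Ctrl (2.86).

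Beyond lipid genes, the leading higher genes were of mixed kinds. UACA, an ankyrin and coiled-coil protein, stood at 169.8, 151 and 155 CPM in SNRPD2KO and 15.9, 19.4 and 17.95 in Ctrl (log2 fold change 3.16, SE 0.08, adjusted p = 1.7e-09). TPR, the nuclear pore basket protein, stood at 181, 172 and 178 CPM in SNRPD2KO and 23.3, 26.01 and 23.6 in Ctrl (log2 fold change 2.86, SE 0.07, adjusted p = 8.5e-10). LRRN1, a leucine-rich repeat membrane protein, stood at 17.7, 17.3 and 17.2 CPM in SNRPD2KO and 1.59, 1.34 and 1.35 in Ctrl (3.60). Lack of overlap between groups was a condition of their choice. The noncoding RNAs LINC02009 (2.89), MIR205HG (2.86) and LINC02334 (2.84) and the receptor GPR15 (2.72) were also among them, each at 16.2 CPM or less.

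The 12 leading lower genes, chosen in the same way, included several secreted proteins. TFF1, a mucosal trefoil peptide, stood at 1.83, 1.19 and 1.27 CPM in SNRPD2KO and 15.1, 16.02 and 14.2 in Ctrl (log2 fold change -3.39, SE 0.18, adjusted p = 7.5e-08). MMP1, the interstitial collagenase, stood at 3.498, 5.58 and 5.09 CPM in SNRPD2KO and 48.1, 38.6 and 41.4 in Ctrl (log2 fold change -3.18, SE 0.15, adjusted p = 4.4e-08). CXCL8, the neutrophil chemokine interleukin 8, stood at 8.66, 9.08 and 7.502 CPM in SNRPD2KO and 65.5, 61.4 and 69.1 in Ctrl (log2 fold change -2.95, SE 0.09, adjusted p = 3.1e-09). The elastase inhibitor PI3 (-3.28), the epidermal envelope protein SPRR2A (-3.08) and the interleukin 33 receptor IL1RL1 (-2.88) were also lower. HBE1, an embryonic globin (-4.20), GUCA1B (-3.32) and NME1-NME2 (-3.48), a readthrough of 2 neighbouring genes that share its reads, had under 1 CPM in every library labelled SNRPD2KO.

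The 3 largest negative values among these 12 leading lower genes leaned on a single library, and the first 2 calls rested on it. EEF1B2, a translation elongation factor subunit with 5 named pseudogenes, stood at 1.66, 2.43 and 1.97 CPM in SNRPD2KO and 531, 3.35 and 2.99 in Ctrl (log2 fold change -6.47, SE 1.80, adjusted p = 0.0097), so Ctrl replicate 1 stood far above the other Ctrl libraries. Without it the value was -0.65 (adjusted p = 0.062, edgeR). PSME1, a proteasome activator subunit, stood at 1.66, 1.42 and 1.21 CPM in SNRPD2KO and 89.1, 1.95 and 2.09 in Ctrl and gave -4.43, and -0.49 without Ctrl replicate 1 (adjusted p = 0.2, edgeR). DUSP14, a phosphatase, stood at 0.287, 0.475 and 0.381 CPM in SNRPD2KO and 21.3, 2.498 and 1.12 in Ctrl and gave -4.43, and still passed without it, at -2.25 (adjusted p = 0.0025, edgeR). In limma voom none of the 3 passed (adjusted p = 0.37, 0.28 and 0.078 in that order).

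**Figure D2:**
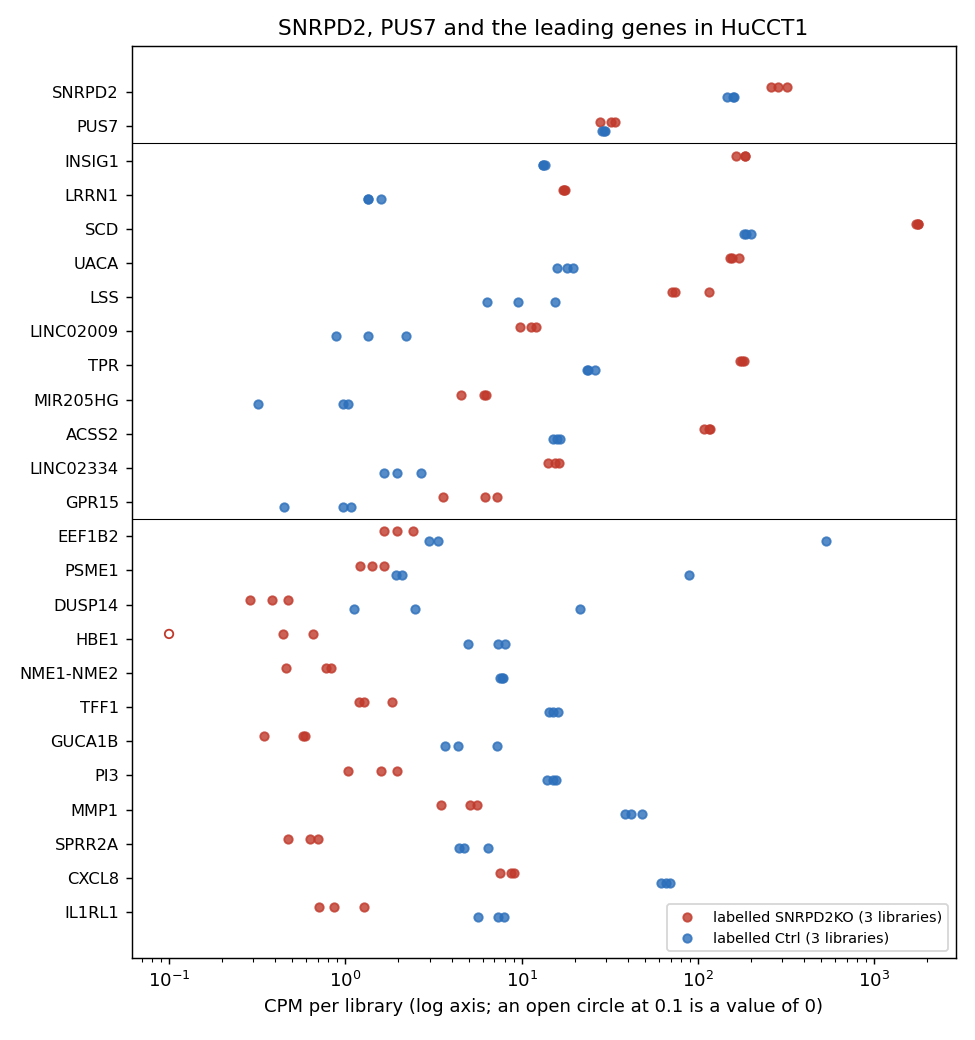
CPM in each library (log axis) of SNRPD2, PUS7, 11 of the leading higher and the 12 leading lower genes, 1 point a library, red for the 3 labelled SNRPD2KO and blue for the 3 labelled Ctrl. SNRPD2 lies higher in the libraries labelled SNRPD2KO, and EEF1B2, PSME1 and DUSP14 each have 1 Ctrl point far to the right of the other Ctrl points.

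Among the genes with the most reads that changed at least 2-fold, FASN, the fatty acid synthase, stood at 1470, 1249 and 1332 CPM in SNRPD2KO and 208, 222 and 194 in Ctrl (log2 fold change 2.70, SE 0.07, adjusted p = 1.8e-09). The cytoskeletal genes PLEC (1.06), SPTAN1 (1.24) and DYNC1H1 (1.10), for plectin, spectrin and the dynein heavy chain, and the long noncoding RNA UCA1 (1.28) rose as well. LAMB3, a laminin chain of epithelial basement membrane, stood at 743, 787 and 803 CPM in SNRPD2KO and 3134, 3051 and 2968 in Ctrl (log2 fold change -1.97, SE 0.05, adjusted p = 1.4e-09). SLC3A2, the heavy chain of amino acid transporters, stood at 199, 214 and 230.2 CPM in SNRPD2KO and 847, 846 and 806 in Ctrl (-1.96). FOSL1, an AP-1 subunit (-1.13), the membrane protein TM4SF1 (-1.43), the chromatin protein HMGA1 (-1.02) and the initiation factor EIF1 (-1.02) fell. EIF1 and HMGA1 have named pseudogenes, so part of their reads may be shared with those copies.

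Cholesterol genes rose almost throughout. Of 32 measured members 28 rose and 1 fell, with a median log2 fold change of 1.26, beside 28.8% and 28.4% of all genes. Of 20 synthesis enzymes 19 rose, the exception being PMVK (-0.01, not past). The enzymes ran from the start of the pathway to its end, with ACAT2 and HMGCS1 (1.77 and 1.72), which build HMG-CoA, MVD (1.94), FDFT1 (1.64) and SQLE (1.35), which lead into sterols, and DHCR7 (1.34), the last reductase. Among genes of uptake and control, SREBF1 stood at 93.98, 92.8 and 89.3 CPM in SNRPD2KO and 23.2, 23.3 and 21.7 in Ctrl (log2 fold change 2.02, SE 0.06, adjusted p = 3.3e-09), and the sterol carrier STARD4 at 35.1, 31.8 and 30.6 CPM in SNRPD2KO and 7.31, 5.54 and 6.43 in Ctrl (2.34). SREBF2, which encodes an SREBP, rose by 0.85 on the log2 scale. MYLIP, a ubiquitin ligase that answers to liver X receptors, fell (-0.67), and the cholesterol exporters ABCA1 (-0.01) and ABCG1 (0.16), further targets of those receptors, did not pass.

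Fatty acid genes rose less uniformly, in 13 of 21, with 4 lower and a median of 0.58. Over all genes 28.8% were higher and 28.4% lower. Beside SCD, ACSS2 and FASN, the desaturase FADS1 stood at 135, 154 and 157 CPM in SNRPD2KO and 51.3, 49.5 and 47.1 in Ctrl (1.59), the acyl-CoA synthetase ACSL3 at 169, 162 and 157 CPM in SNRPD2KO and 52.6, 54.5 and 62.3 in Ctrl (1.53), and ACLY, which makes cytosolic acetyl-CoA from citrate, at 823, 832 and 880.4 CPM in SNRPD2KO and 378, 378 and 362 in Ctrl (1.18). The 3 genes did not overlap between groups. MID1IP1 (-0.55), GPAM (-0.47), ELOVL5 (-0.31) and ELOVL1 (-0.19) fell.

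Promoters of 24 of the 32 cholesterol genes stood in the RefSeq table (build GRCh38.p14), and short motifs were searched on both strands in the 250 bases before each start site. A CCAAT box (CCAAT) is the site of NF-Y, a factor that often works beside SREBP. It stood in 17 of these 24 genes (70.8%), where a match in any of their 30 promoters was enough. Of all 35116 promoters taken singly 32.01% held it, so the shares by gene and by promoter are not alike. Of the 17, 16 rose and 1 fell, and of the 7 without it 5 rose. The sterol element TCACNCCAC stood in 1 of 24, and in 0.883% of all promoters. Matches describe letters alone, and no binding was measured. Stretches of 100 bases around the first CCAAT match are shown for the leading genes INSIG1 and SCD, with the match in capitals. The INSIG1 match lies on the opposite strand.
INSIG1, chr7:155297660-155297759, plus strand: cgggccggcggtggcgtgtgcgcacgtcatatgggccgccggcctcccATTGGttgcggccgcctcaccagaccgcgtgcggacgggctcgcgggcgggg
SCD, chr10:100346983-100347082, plus strand: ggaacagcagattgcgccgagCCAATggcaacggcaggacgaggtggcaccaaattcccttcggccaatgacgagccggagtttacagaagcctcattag

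Inflammatory genes moved the other way. Of 36 measured NF-kB and cytokine genes 28 fell and 4 rose (median -0.84, beside 28.4% and 28.8% of all genes). The neutrophil chemokine CXCL5 stood at 172, 174 and 140 CPM in SNRPD2KO and 629.6, 642 and 675 in Ctrl (log2 fold change -2.002, SE 0.08, adjusted p = 1.7e-08), and CXCL1 (-1.71) and CXCL3 (-1.64) fell with it. Interleukin 1 beta, IL1B, stood at 4.99, 6.53 and 6.17 CPM in SNRPD2KO and 36.8, 37.4 and 42.1 in Ctrl (log2 fold change -2.72, SE 0.11, adjusted p = 2.4e-08), IL1A at 7.11, 11.2 and 10.4 CPM in SNRPD2KO and 35.6, 43.3 and 39.3 in Ctrl (-2.04) and IL11 at 3.61, 4.99 and 4.77 CPM in SNRPD2KO and 19.1, 16.8 and 15.6 in Ctrl (-1.94). In each of these genes every library labelled SNRPD2KO lay below every Ctrl library. Among subunits and regulators, 12 of 16 fell, including the adaptor TRAF1 (-2.13), the inhibitors NFKBIA (-0.90) and TNFAIP3 (-1.08), which NF-kB itself induces, and RELB (-0.75). RELA fell too (-0.54), and REL (0.28) and BIRC3 (0.09) did not pass. The 4 that rose were CXCL10 (0.64), NFKBIZ (0.62), CSF1 (0.23) and TNFAIP2 (0.13).

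Of the 29 genes of this list in the promoter table, 16 (55.2%) held a match to the NF-kB site. The 29 genes have 43 promoters and a match in any was enough, so the 5.21% of all single promoters is not a like share. Of those 16, 11 fell and 2 rose (median -0.59), and of the other 13, 12 fell and 1 rose (median -1.46). The lower values were thus spread over genes with and without the match. The promoter of CXCL5 is shown around its match, in capitals.
CXCL5, chr4:73998714-73998813, minus strand: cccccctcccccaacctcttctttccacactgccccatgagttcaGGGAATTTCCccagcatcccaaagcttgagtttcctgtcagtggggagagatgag

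Interferon response genes, the antiviral genes that interferons switch on, rose in 21 of 42 and fell in 4 (median 0.31). Over all genes 28.8% rose and 28.4% fell. STAT2 stood at 73.5, 71.3 and 66.6 CPM in SNRPD2KO and 20.8, 20.1 and 20.2 in Ctrl (log2 fold change 1.79, SE 0.07, adjusted p = 1.1e-08), SAMD9L, an antiviral factor, at 57.3, 45.8 and 48.1 CPM in SNRPD2KO and 11.3, 15.05 and 15.3 in Ctrl (1.86), and its neighbour SAMD9 at 153, 141 and 128 CPM in SNRPD2KO and 63.2, 72.4 and 74.7 in Ctrl (1.01). These 3 did not overlap between groups. The RNA sensors IFIH1 (0.83) and DHX58 (0.74) and the effectors IFIT1 (0.68) and OAS3 (0.68) rose, while IRF7 (-1.35), IFITM3 (-0.64), ISG15 (-0.45) and OASL (-0.39) fell and MX1 (0.02) and IFI6 (0.20) did not pass. Of 32 members with a promoter entry, 22 (68.8%) held GAAANNGAAA, the core of the element bound by interferon-activated factors. They were counted by gene over 42 promoters, against 3.02% of all promoters taken singly, which is not a like share. Of these 22, 11 rose and 2 fell, and of the 10 without it 4 rose and none fell. EPSTI1, at 15.7, 15.4 and 15.01 CPM in SNRPD2KO and 5.21, 7.92 and 6.88 in Ctrl (1.20), is shown around its match, in capitals.
EPSTI1, chr13:42992242-42992341, minus strand: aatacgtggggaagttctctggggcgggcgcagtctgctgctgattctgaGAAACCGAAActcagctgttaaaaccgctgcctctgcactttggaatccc

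Feedback genes of the ERK pathway fell in 19 of 27 and rose in 5 (median -0.64, beside 28.4% and 28.8% of all genes). They included the phosphatases DUSP6 (-0.95) and DUSP5 (-0.97), which switch ERK off, the SPRY and SPRED inhibitors SPRY4 (-0.93), SPRY2 (-0.69) and SPRED3 (-1.51), the ETS factors ETV4 (-0.93) and ETV5 (-1.40), and the EGF receptor ligands HBEGF (-0.88) and AREG (-0.86). ETV5 stood at 20.6, 23.1 and 24.8 CPM in SNRPD2KO and 63.1, 58.2 and 59.4 in Ctrl. The receptors themselves were among those that rose: ERBB2 stood at 131, 126 and 128 CPM in SNRPD2KO and 60.4, 52.8 and 57.8 in Ctrl (log2 fold change 1.17, SE 0.06, adjusted p = 9.6e-08), and ERBB3 (1.13) and EGFR (0.81) rose too.

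Immediate early genes, which growth signals induce within minutes, divided. FOS stood at 107, 102 and 108 CPM in SNRPD2KO and 20.3, 20.4 and 20.9 in Ctrl (log2 fold change 2.36, SE 0.06, adjusted p = 1.4e-09) and EGR1 at 396, 403 and 399 CPM in SNRPD2KO and 95.9, 98.4 and 95.3 in Ctrl (log2 fold change 2.05, SE 0.05, adjusted p = 9.3e-10), and both were almost equal between replicates. JUND (1.21), FOSB (1.09) and JUN (0.92) rose, while FOSL1, FOSL2 (-0.79), ATF3 (-1.08) and MYC (-0.92) fell. In all 9 of 25 rose and 13 fell (36% and 52%, beside 28.8% and 28.4% of all genes).

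**Figure D3:**
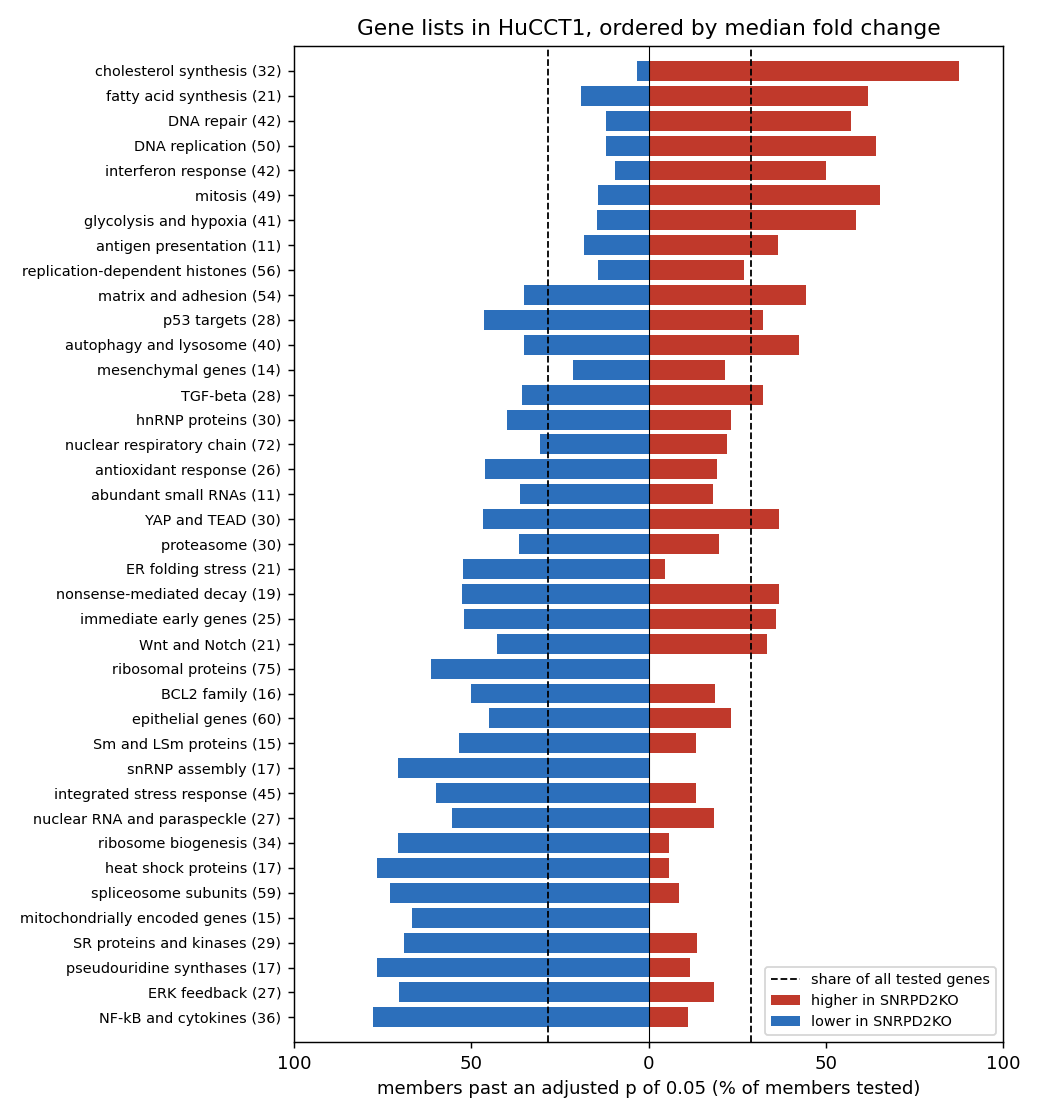
Share of each gene list's tested members (number in brackets) that were higher (red, to the right) or lower (blue, to the left) at an adjusted p under 0.05, ordered by the list's median log2 fold change. Dashed lines mark the shares of all tested genes, 28.8% higher and 28.4% lower; cholesterol synthesis stands at the top and NF-kB and cytokine genes at the bottom.

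Genes of the splicing machinery itself were mostly lower. Of 59 spliceosome subunits 43 fell and 5 rose (median -0.48, beside 28.4% and 28.8% of all genes). In the particle of U4, U6 and U5 RNA, 12 of 14 fell: PRPF3 stood at 99.8, 102 and 103 CPM in SNRPD2KO and 366, 357 and 349.6 in Ctrl (log2 fold change -1.82, SE 0.05, adjusted p = 1.8e-09) and its partner PRPF4 at 97.2, 106 and 113 CPM in SNRPD2KO and 271, 265 and 271 in Ctrl (log2 fold change -1.35, SE 0.06, adjusted p = 3.3e-08). In the U2 particle 10 of 15 fell, with SNRPA1 at 29.3, 29.4 and 22.9 CPM in SNRPD2KO and 73.95, 76.8 and 87.9 in Ctrl (-1.55) and SF3B4 at 220.5, 189 and 203 CPM in SNRPD2KO and 487, 504 and 481 in Ctrl (-1.26), and SF3B3 (0.44) and U2AF2 (0.14) rose. RNPC3, of the minor spliceosome, stood at 5.45, 4.63 and 3.94 CPM in SNRPD2KO and 13.7, 21.8 and 16.7 in Ctrl (-1.89). RBM22, which contacts RNA in the catalytic core, fell by 1.18 on the log2 scale, and the helicase SNRNP200 (0.22) rose.

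Partners of SmD2 were among them. Of 6 other Sm ring genes 4 fell and none rose: SNRPB stood at 236, 257 and 235 CPM in SNRPD2KO and 492, 519 and 465 in Ctrl (log2 fold change -1.02, SE 0.06, adjusted p = 1.6e-07) and SNRPD1, which pairs with SmD2 in the ring, at 73.9, 83.9 and 86.98 CPM in SNRPD2KO and 127, 127 and 127 in Ctrl (log2 fold change -0.64, SE 0.07, adjusted p = 1.1e-05), both without overlap and both opposite in direction to SNRPD2. SNRPF (-0.32) and SNRPG (-0.36) fell, and SNRPE (-0.28) and SNRPD3 (-0.15) did not pass. Of 17 genes of snRNP assembly 12 fell and none rose (median -0.34). Both sets stand beside 28.4% lower and 28.8% higher of all genes. STRAP, of the SMN complex, stood at 268, 270.4 and 265 CPM in SNRPD2KO and 538, 534 and 546 in Ctrl (-1.01), the coilin gene COIL at 52.2, 54.7 and 51.7 CPM in SNRPD2KO and 100.4, 109 and 103 in Ctrl (-0.98) and the Sm methyltransferase PRMT5 at 95.7, 91.9 and 101 CPM in SNRPD2KO and 167, 171 and 159.8 in Ctrl (-0.78).

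SR proteins, which promote exon recognition, and their kinases gave 20 lower and 4 higher genes of 29 (median -0.53), with LUC7L (-1.74), SRRM1 (-1.18), SRSF1 (-0.88) and CLK3 (-0.83) lower. Of 30 hnRNP proteins 7 were higher and 12 lower (23.3% and 40%, median -0.07, beside 28.8% and 28.4% of all genes), with HNRNPH3 (0.96) higher and RBM39 (-1.14) lower. Of 19 nonsense-mediated decay factors 7 were higher and 10 lower (36.8% and 52.6%, median -0.21): UPF3A (1.33) and UPF2 (0.91) rose, SMG8 (-1.03) and the exon junction protein RNPS1 (-1.03) fell. Pseudouridine synthases and H/ACA proteins fell in 13 of 17 and rose in 2 (median -0.59). All 6 H/ACA proteins fell, among them NAF1 (-1.11), SHQ1 (-0.93) and NHP2 (-0.74). Of stand-alone synthases PUS1 stood at 25.1, 23.4 and 28.2 CPM in SNRPD2KO and 52.2, 48.9 and 49.7 in Ctrl (-0.97) and TRUB1 fell (-0.78), while PUS7L, a relative of PUS7, stood at 17.7, 18.2 and 18.1 CPM in SNRPD2KO and 7.56, 10.1 and 11.5 in Ctrl (0.89).

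The snRNAs did not move together. Reads on 24 U1 genes and variants summed to 129, 105 and 135 CPM in SNRPD2KO and 288, 248 and 276 in Ctrl, higher in Ctrl (123 ± 16.1 against 270.5 ± 20.8 CPM, SD, n = 3), and the groups did not overlap. Of 17 U1 genes with enough counts, 16 were lower and 1 higher in edgeR, beside 28.4% and 28.8% of all genes. RNVU1-22 stood at 15.3, 17.9 and 15.96 CPM in SNRPD2KO and 81.1, 82.3 and 75.03 in Ctrl (log2 fold change -2.28, SE 0.08, adjusted p = 5.1e-09), and RNVU1-34 at 11.3, 9.44 and 8.77 CPM in SNRPD2KO and 51.02, 46.5 and 49.97 in Ctrl (-2.32). RNVU1-31 went the other way, at 59.4, 41.8 and 66.1 CPM in SNRPD2KO and 35.6, 28.3 and 37.03 in Ctrl (0.73, adjusted p = 0.0018). The 2 U4 genes, RNU4-1 and RNU4-2, summed to 39.97, 29.98 and 51.2 CPM in SNRPD2KO and 21.8, 18.2 and 21.2 in Ctrl, about 1.98 times as much in SNRPD2KO, without overlap (1.27 and 0.89, adjusted p = 0.0025 and 0.00077).

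For the U2, U5 and minor class genes summed here no difference was detectable at this depth. U2 genes summed to 2.35, 2.91 and 2.73 CPM in SNRPD2KO and 5.4003, 2.56 and 3.82 in Ctrl, and the groups overlapped. U5 genes summed to 3.96, 5.88 and 5.404 CPM in SNRPD2KO and 4.89, 4.02 and 5.91 in Ctrl. RNU4ATAC gave 15.3, 6.41 and 9.22 CPM in SNRPD2KO and 10.1, 7.31 and 9.35 in Ctrl, and RNU6ATAC gave 9.17, 4.63 and 4.83 CPM in SNRPD2KO and 4.64, 4.14 and 3.82 in Ctrl. No tested gene in these sums passed. U1 copies are near identical, so reads can move between them and single copies are uncertain, while the family sums do not depend on that split among the listed copies. RNU2-63P, annotated as a U2 pseudogene and left out of the sum, stood at 5.62, 5.52 and 5.09 CPM in SNRPD2KO and 28.1, 20.2 and 21.5 in Ctrl (-2.10). It passed (adjusted p = 4e-07, edgeR) and held more reads than the U2 sum, so the U2 result holds only for the copies summed. RN7SL1, the signal recognition particle RNA, stood at 9855, 13614 and 14891 CPM in SNRPD2KO and 23097, 16025 and 18269 in Ctrl (-0.58), and its groups did not overlap.

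**Figure D4:**
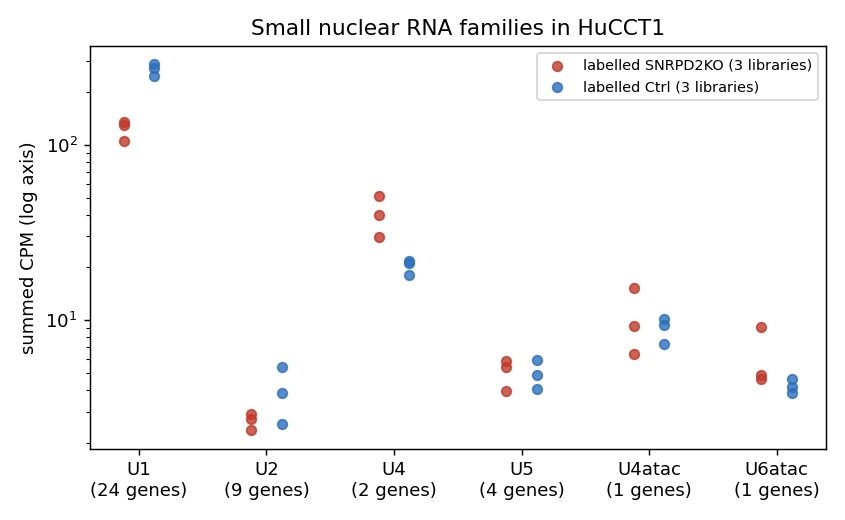
Summed CPM (log axis) of the genes of each small nuclear RNA family, 1 point a library, red for the 3 labelled SNRPD2KO and blue for the 3 labelled Ctrl. U1 lies at 105 to 135 CPM in SNRPD2KO and 248 to 288 in Ctrl, U4 at 30.0 to 51.2 and 18.2 to 21.8, and the U2, U5, U4atac and U6atac groups lie close together or overlap.

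Genes with many introns were higher. Taking the longest transcript of each gene in GENCODE 29, the 1403 tested genes with more than 20 introns had 883 higher and 158 lower (median log2 fold change 0.47). The 7273 genes with 0 to 5 introns had 1413 higher and 2293 lower (median -0.13). By class, medians were -0.15 for intronless genes, -0.08 at 1 to 2 introns, -0.14 at 3 to 5, -0.06 at 6 to 10, 0.15 at 11 to 20, 0.43 at 21 to 40 and 0.71 over 40. Of the 213 genes over 40 introns 71.4% were higher and 6.57% lower, against 28.8% and 28.4% of all genes. The medians of the classes below 11 introns had no order by intron number, and those above climbed with it.

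The same appeared in the libraries' composition. Shares here are of each library's counts on tested genes of known intron number. Genes over 20 introns took 15.9%, 15.8% and 15.7% in the libraries labelled SNRPD2KO and 11.4%, 11.8% and 11.6% in Ctrl. Genes over 40 introns took 3.62%, 3.56% and 3.60% against 1.88%, 1.97% and 1.90%. Neither overlapped. Among transcripts of 3 to 8 kb alone, medians were 0.46 at 21 to 40 introns and 0.71 over 40, against -0.10 at 6 to 10. For the same lengths HEK293T gave 0.31 over 40 introns (49 genes), and -0.12 to -0.02 in the other classes. Across genes, Spearman's rho with the fold change was 0.22 for intron number, 0.16 for transcript length and -0.02 for GC content, given as descriptions of genes that share libraries. Over all lengths the HEK293T class medians of SNRPD2KO minus Ctrl lay between -0.07 and 0.10, with rho -0.04 over 12265 genes. HEK293T medians did rise with GC content, from -0.50 up to 40% to 0.36 over 60%, where HuCCT1 gave 0.12 and 0.09. By transcript length HEK293T gave 0.22 at 1 to 2 kb and -0.28 over 8 kb. The part of these trends in the comparison of the lines was not tested. Splicing was not measured, since the table holds counts per gene.

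**Figure D5:**
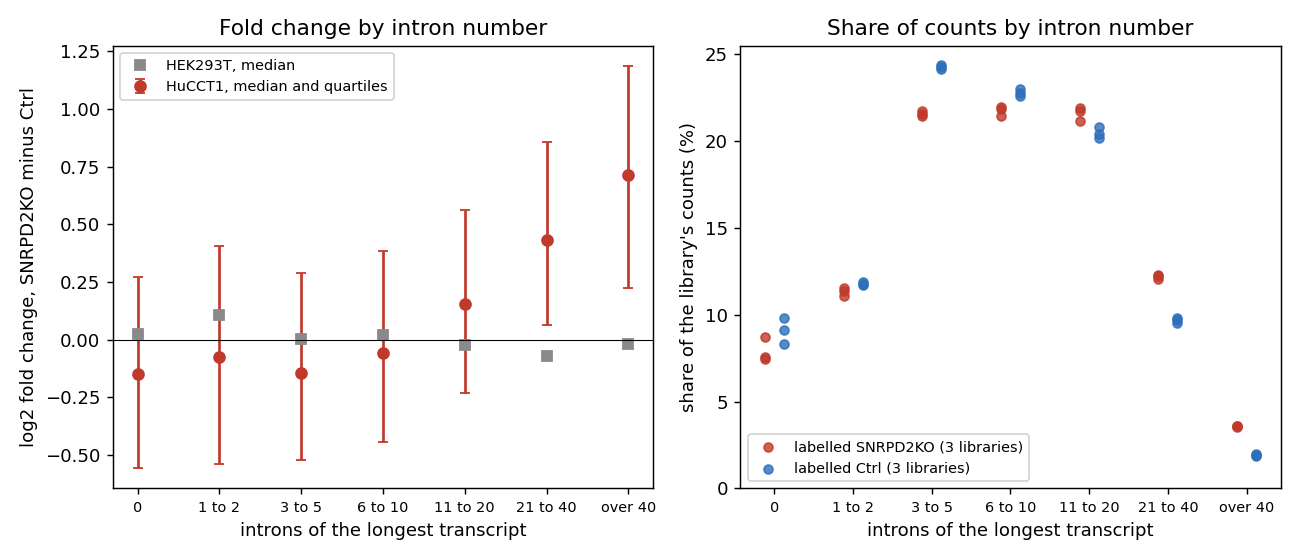
Left, median log2 fold change (SNRPD2KO minus Ctrl) by number of introns in the longest transcript, red circles with quartile bars for HuCCT1 and grey squares for HEK293T medians. Right, share (%) of each HuCCT1 library's counts on tested genes of known intron number in the same classes, 1 point a library. Genes over 40 introns hold 3.56% to 3.62% in SNRPD2KO and 1.88% to 1.97% in Ctrl.

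Cell cycle and repair genes were mostly higher, beside 28.8% higher and 28.4% lower of all genes. Some of them are genes of many introns. DNA replication genes rose in 32 of 50 and fell in 6 (median 0.42), mitotic genes in 32 of 49 and 7 (0.29), and DNA repair genes in 24 of 42 and 5 (0.44). LIG1, the ligase that seals lagging strand fragments, stood at 67.03, 63.3 and 64.1 CPM in SNRPD2KO and 18.9, 18.9 and 18.8 in Ctrl (log2 fold change 1.78, SE 0.06, adjusted p = 8.4e-09), and the fork protein TIMELESS at 101, 94.9 and 100.1 CPM in SNRPD2KO and 35.96, 36.9 and 31.05 in Ctrl (1.51). CENPE, a kinetochore motor, stood at 45.5, 38.8 and 38.6 CPM in SNRPD2KO and 6.86, 8.41 and 9.28 in Ctrl (log2 fold change 2.33, SE 0.12, adjusted p = 6.8e-08), and the spindle protein ASPM at 121, 108 and 107 CPM in SNRPD2KO and 26.3, 25.5 and 27.3 in Ctrl (log2 fold change 2.09, SE 0.07, adjusted p = 5.1e-09). BRCA2 stood at 20.1, 18.7 and 16.7 CPM in SNRPD2KO and 6.42, 5.2998 and 5.31 in Ctrl (1.70), the damage kinase ATM at 52.1, 52.8 and 53.7 CPM in SNRPD2KO and 19.1, 19.5 and 16.8 in Ctrl (1.51), and BRCA1 (1.36) and FANCI (1.31) rose too. In none of the 6 genes given by library did the groups overlap.

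Split by introns, mitotic genes with more than 20 rose in 10 of 12 with none lower (median 0.64), and those with 0 to 10 rose in 9 and fell in 7 of 21 (median 0.05). The lower ones included cyclin B1, CCNB1 (-0.29), PLK1 (-0.47), BIRC5 (-0.49) and UBE2C (-0.50). Repair genes with more than 20 introns rose in 11 of 12 (median 0.87), and those with 0 to 10 in 8 of 17 (0.17). For replication the values were 7 of 7 (1.15) and 12 of 22 (0.29). In cholesterol genes 21 of 23 with 0 to 10 introns rose (median 1.41) and 4 of 5 with more than 20 (0.85). ERK feedback genes with 0 to 10 introns fell in 14 of 18 and rose in 2 (median -0.74), and the 2 with more than 20 rose. Spliceosome subunits with 0 to 10 fell in 28 of 34 and rose in 2 (median -0.52). Of 7 subunits with more than 20 introns 2 rose and 2 fell (median 0.0062). Over all genes, 883 of 1403 with more than 20 introns were higher. With 0 to 5 introns 1413 of 7273 were higher and 2293 lower. With 6 to 10 introns 837 of 3108 were higher and 1075 lower. The part of intron number in these lists was not tested. Replication-dependent histones, mostly intronless, rose in 15 of 56 and fell in 8 (26.8% and 14.3%, median 0.01, beside 28.8% and 28.4% of all genes).

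Most measured genes of the integrated stress response and of heat shock were lower. The lists here are read beside 28.4% lower and 28.8% higher of all genes. Genes of the integrated stress response, driven by ATF4, fell in 27 of 45 and rose in 6 (median -0.36). CHAC1, which breaks down glutathione, stood at 17.5, 14.8 and 16.1 CPM in SNRPD2KO and 67.8, 65.8 and 63.4 in Ctrl (log2 fold change -2.02, SE 0.08, adjusted p = 1.3e-08), and ASNS, the asparagine synthetase, gave -2.49. DDIT3, also called CHOP, stood at 15.9, 15.97 and 17.1 CPM in SNRPD2KO and 36.02, 31.6 and 30.1 in Ctrl (-0.998), and ATF4 itself gave -0.41. CTH (0.76), SLC38A2 (0.69) and ATF5 (0.51) were among those that rose. Genes of folding in the endoplasmic reticulum gave 11 lower and 1 higher of 21 (median -0.17), with XBP1 at 72.5, 68.6 and 65.3 CPM in SNRPD2KO and 179, 178 and 170.2 in Ctrl (-1.35) and the chaperone HSPA5 at 858, 916 and 924 CPM in SNRPD2KO and 1598, 1594 and 1618 in Ctrl (-0.83). Heat shock proteins fell in 13 of 17 (median -0.47), such as BAG3 (-1.26) and HSPH1 (-1.20). Antioxidant genes gave 5 higher and 12 lower of 26 (19.2% and 46.2%, median -0.08). Targets of p53 gave 9 and 13 of 28 (32.1% and 46.4%, median 0.0021). Among them XPC (1.24) and DDB2 (1.15) were higher and AEN (-1.49) and TIGAR (-1.39) lower.

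Ribosomal protein genes fell in 46 of 75 and none rose, by a median of -0.26. Ribosome biogenesis genes fell in 24 of 34 and rose in 2 (-0.43), beside 28.4% and 28.8% of all genes. BYSL, of small subunit assembly, stood at 44.1, 54.8 and 56.01 CPM in SNRPD2KO and 174, 151 and 148 in Ctrl (log2 fold change -1.61, SE 0.10, adjusted p = 1.8e-07). Many ribosomal protein genes have processed pseudogenes, and RPL9 (-1.79), RPL21 (-0.97), RPS28 (-1.06) and RPS26 (-0.65) varied widely between libraries, so single members are uncertain. FAU stood at 691, 655 and 696 CPM in SNRPD2KO and 1150.1, 1141 and 1119 in Ctrl (-0.74), with no overlap. Of 15 mitochondrially encoded genes 10 fell and none rose (median -0.51): MT-ND1, of complex I, stood at 1091, 689 and 984 CPM in SNRPD2KO and 1782, 1751 and 1823 in Ctrl (-0.95) and MT-CO2, of complex IV, at 1353, 994 and 1464 CPM in SNRPD2KO and 2219.6, 2132 and 2532 in Ctrl (-0.85), in both with SNRPD2KO replicate 2 lowest. Nuclear genes of the respiratory chain gave 16 higher and 22 lower of 72 (22.2% and 30.6%, beside 28.8% and 28.4% of all genes). UQCRC2 (3.77) rested on SNRPD2KO replicate 1, at 19.95, 1.19 and 0.572 CPM in SNRPD2KO and 0.318, 0.670 and 0.598 in Ctrl, and without it gave 0.74 (adjusted p = 0.25, edgeR). Among proteasome genes 6 rose and 11 fell of 30 (20% and 36.7%). PSMC4 (-2.69), at 2.87, 2.31 and 1.65 CPM in SNRPD2KO and 3.05, 37.5 and 3.37 in Ctrl, rested on Ctrl replicate 2 and gave -0.49 without it (adjusted p = 0.17, edgeR), and PSMC1 (-2.91), at 2.81, 6.71 and 1.65 CPM in SNRPD2KO and 58.6, 21.6 and 3.59 in Ctrl, ranged widely within Ctrl, gave -1.77 without Ctrl replicate 1 (adjusted p = 0.037, edgeR) and did not pass in limma voom (adjusted p = 0.089).

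Glycolysis and hypoxia genes rose in 24 of 41 and fell in 6 (median 0.26, beside 28.8% and 28.4% of all genes). PFKFB4, which makes the activator of phosphofructokinase, stood at 27.9, 27.2 and 32.4 CPM in SNRPD2KO and 4.89, 4.69 and 5.46 in Ctrl (log2 fold change 2.54, SE 0.11, adjusted p = 3e-08), and the glucose transporter SLC2A3 at 134, 113 and 115 CPM in SNRPD2KO and 31.7, 38.2 and 33.2 in Ctrl (1.81). CA9 (1.35) and EGLN3 (1.34), targets of hypoxia-inducible factor, rose, while others, ANGPTL4 (-2.15), CA12 (-1.23) and VEGFA (-0.44), fell.

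Mucosal genes were mostly lower, as were 7 of 14 keratins. Of 15 mucin and secreted product genes 10 fell and 2 rose: LCN2, an iron-siderophore carrier, stood at 18.9, 18.8 and 18.1 CPM in SNRPD2KO and 99.9, 102 and 119 in Ctrl (log2 fold change -2.52, SE 0.08, adjusted p = 3.6e-09), and the protease inhibitor SLPI at 5.96, 4.63 and 5.21 CPM in SNRPD2KO and 20.3, 19.5 and 20.6 in Ctrl (-1.93). The membrane mucins MUC1, at 69.04, 62.2 and 64.1 CPM in SNRPD2KO and 26.2, 22.97 and 21.9 in Ctrl (1.46), and MUC16 (1.77) were the 2 that rose. Of 14 keratins 7 fell and none passed as higher, though for 3 every SNRPD2KO library lay above every Ctrl library. In limma voom KRT7 (0.10, adjusted p = 0.048) and KRT19 (0.13, adjusted p = 0.035) passed as higher. Those that fell were led by the stress keratins KRT6B (-3.04) and KRT6A (-2.41) and by KRT17 (-1.70). KRT6A stood at 4.13, 3.44 and 5.15 CPM in SNRPD2KO and 24.2, 20.95 and 22.3 in Ctrl. KRT6A and KRT6B resemble each other closely in sequence. Junction genes gave 12 higher and 10 lower of 31 (38.7% and 32.3%, beside 28.8% and 28.4% of all genes). Claudin CLDN2 stood at 17.9, 15.1 and 18.2 CPM in SNRPD2KO and 4.07, 5.73 and 2.84 in Ctrl (2.002), and CLDN1 was lower (-0.97).

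Adhesion genes changed in both directions, and their counts stand beside 28.8% higher and 28.4% lower of all genes. Of 12 integrins 6 rose and 2 fell: ITGB4, the beta 4 chain of hemidesmosomes, stood at 669.7, 598 and 653 CPM in SNRPD2KO and 178, 167 and 172 in Ctrl (log2 fold change 1.89, SE 0.06, adjusted p = 3.3e-09) and ITGA3, a laminin receptor chain, at 1217, 1103 and 1205 CPM in SNRPD2KO and 355, 359 and 342 in Ctrl (log2 fold change 1.74, SE 0.05, adjusted p = 3.4e-09). LAMB3, a chain of a laminin that such integrins bind, ran the other way, and the anchoring collagen COL7A1 stood at 64.7, 64.2 and 77.8 CPM in SNRPD2KO and 23.3, 22.8 and 23.1 in Ctrl (1.58). Of all 31 matrix and adhesion genes with more than 20 introns 19 rose and 6 fell (median 0.40), and of 15 with 0 to 10 introns 3 rose and 11 fell (-0.64). ITGB4 has 39 introns, ITGA3 23, COL7A1 117 and LAMB3, which fell, 21; the part of intron number in these changes was not tested. Proteases and inhibitors gave 13 lower and 6 higher of 21, with the urokinase receptor PLAUR at 78.2, 75.7 and 72.03 CPM in SNRPD2KO and 264, 259 and 269 in Ctrl (-1.81). Mesenchymal genes gave 3 higher and 3 lower of 14 (21.4% each), with SNAI2 (0.76) higher and fibronectin, FN1 (-0.75), lower.

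The signalling and turnover lists are read beside 28.8% higher and 28.4% lower of all genes. YAP and TEAD genes gave 11 higher and 14 lower of 30 (36.7% and 46.7%), with MYOF (1.65) higher and NUAK2 (-1.60) lower. TGF-beta genes gave 9 and 10 of 28 (32.1% and 35.7%), with BMP4 (1.09) higher and BMP2 (-2.12) lower, and Wnt and Notch genes 7 and 9 of 21 (33.3% and 42.9%), with the Notch ligands JAG2 (1.22) higher and JAG1 (-1.18) lower. Autophagy and lysosome genes gave 17 and 14 of 40 (42.5% and 35%), antigen presentation genes 4 and 2 of 11 (36.4% and 18.2%), and BCL2 family genes 3 and 8 of 16 (18.8% and 50%), with the survival gene BCL2L1 (-0.65) lower. Of 27 nuclear noncoding RNAs and paraspeckle genes 5 rose and 15 fell (18.5% and 55.6%): the snoRNA host gene SNHG1 stood at 118, 104 and 122 CPM in SNRPD2KO and 420.3, 413 and 432 in Ctrl (log2 fold change -1.88, SE 0.07, adjusted p = 6.6e-09), and NORAD, a noncoding RNA that binds PUMILIO proteins, at 213, 258 and 229 CPM in SNRPD2KO and 107, 104 and 99.3 in Ctrl (1.17).

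Whether these differences were shared with HEK293T was asked with an interaction term fitted to 12 libraries, 6 of each line, and 7171 of 17617 genes (40.7%) differed between the lines at an adjusted p under 0.05 in edgeR. The 24 leading genes were chosen for large HuCCT1 changes, which favours a difference from HEK293T. Of them, 12 had under 1 CPM in both HEK293T groups and were not compared. Among the other 12, in that joint fit, INSIG1 gave 3.72 in HuCCT1 and 0.43 in HEK293T, SCD 3.18 and 0.48, and TPR 2.84 and -0.83, and these 3 differences passed (adjusted p = 1.8e-10, 4.4e-10 and 3.3e-11, edgeR). NME1-NME2 (-3.49 and -2.88) and GUCA1B (-3.34 and -2.505) were negative in both by the labels and the difference did not pass (adjusted p = 0.58 and 0.32, edgeR). These comparisons take the labels of both lines as given. An exchange in both lines would turn both signs together, and one in HuCCT1 alone would give 3.49 for NME1-NME2, 3.34 for GUCA1B, -3.72 for INSIG1 and -2.84 for TPR there, with HEK293T as it stands. The lines were deposited in separate tables, so line and table cannot be told apart. The GC trend of HEK293T was not removed in the interaction fit.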

How the data were processed

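RNA sequencing counts per gene were analysed for 6 HuCCT1 libraries, 3 labelled SNRPD2KO and 3 labelled Ctrl, and for the interaction also for 6 HEK293T libraries. The authors deposited whole-number counts per gene, not normalized, in 1 table a line; columns were matched to libraries by the line and the column name in the labels, which give the HuCCT1 table another name than it was deposited under. The submitters' processing notes name cutadapt 4.2, HISAT2 2.2.1 and RSEM with build hg38, and their roles, the annotation release and strand setting are not given in the sources used here. Library preparation kept strand, per the labels' protocols.

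In R 4.3.3 with edgeR 4.0.16, genes passed edgeR's filterByExpr (at least 10 counts, 15 in total), libraries were scaled by TMM, and a quasi-likelihood F test without block, two-sided, was adjusted by Benjamini and Hochberg over all 15007 tested genes at 0.05. The interaction used 1 fit of 12 libraries over 17617 genes. The biological coefficient of variation was 10.1%. Totals of 13776166 to 16795618 put the floor of 3 counts at 0.179 to 0.218 CPM, for counting error only. No replicate pair matched within sampling noise (chi-square per degree of freedom 4.26 to 12.9). On simulated counts of 15007 genes, 59.7%, 88.1% and 98.5% of genes set to 1.5-, 2- and 4-fold were recovered, with 5 false calls.

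Named genes were SNRPD2, PUS7, the 12 largest changes each way with at least 5 CPM in the higher group, no overlap and a proper symbol, the 6 with the most reads that changed at least 2-fold each way, up to 6 members a list, markers, and neighbours within 100 kb; list members outside that rule, and the snRNA genes, were named after their values were seen, and some genes that met the rule are not reported here. The 44 lists, 5 of them cell type markers, cover 1438 genes. Members and lists were chosen with earlier results of these data known, and lists are described by counts and medians without a test. Intron numbers come from GENCODE 29 and were known for 97.1% of tested genes. Promoter sequences come from RefSeq (GRCh38.p14). The limit of 1 CPM in HEK293T was set after values were seen. The other settings tried were scaling by RLE or the upper quartile, 2 further filters, DESeq2 1.42.0, limma voom 3.58.1, a replicate block, removal of a GC trend and each library left out; other intron counts and length classes were chosen after seeing the data.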

Additional observations from a re-analysis of the deposited data

Results flagged for a closer look

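For 10 of the 12 leading genes compared, the change in HuCCT1 differed from that in HEK293T (HuCCT1 minus HEK293T on the log2 scale). The test was edgeR's quasi-likelihood test of the interaction, which 7171 of 17617 genes (40.7%) passed. Leading genes were chosen for large changes in the same HuCCT1 libraries, so a difference from HEK293T was favoured by the choice. Among lipid genes the differences were 3.29 for INSIG1, 2.70 for SCD, 2.35 for LSS and 2.16 for ACSS2, and each of these genes had a positive value in HEK293T too (0.43, 0.48, 0.72 and 0.68). UACA and TPR each differed by 3.67, with HEK293T values of -0.52 and -0.83, opposite in sign to HuCCT1 by the labels. With the labels of HuCCT1 alone exchanged, UACA and TPR would give -3.14 and -2.84 in HuCCT1, the sign seen in HEK293T, and INSIG1, SCD, LSS and ACSS2 -3.72, -3.18, -3.07 and -2.84, opposite to HEK293T; whether labels are exchanged was not tested. CXCL8 differed by -4.05, with 1.08 in HEK293T, where it averaged 2.13 CPM in SNRPD2KO and 1.04 in Ctrl. HBE1 differed by -3.59. EEF1B2 (-5.45) and PSME1 (-4.84) rest on HuCCT1 Ctrl replicate 1, and their differences did not pass in limma voom (-1.35, adjusted p = 0.74, and -2.71, adjusted p = 0.21). With the replicate number as a block EEF1B2 did not pass either (-3.76, adjusted p = 0.059, edgeR).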

How the results depend on the processing

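Each count of genes kept within 1.5 times its main value, and SNRPD2 its direction and call, in all alternatives run. Genes changed numbered 8002 with DESeq2 to 8986 without a filter, and 7889 to 8363 with single libraries left out, against 8591. SNRPD2 ran from 0.84 to 0.97 with a library left out and was 0.93 with the GC trend removed. The split of higher and lower genes was 4237 and 4361 with upper quartile factors, the largest shift among scalings. With the replicate number as a block, 8346 genes changed, 4198 higher and 4148 lower, SNRPD2 gave 0.89, PUS7 0.10, and 6933 genes differed between lines; same-numbered libraries did not deviate together (correlations -0.037, -0.016 and -0.011), so the numbers are not taken as a pairing.

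Of 608 recomputed medians of lists and intron classes, 65 moved by at least the spread between replicates with the same sign. Of these, 59 lay in 26 lists or classes where no sign change reached that spread, and they are not given singly. A further 30, over 10 lists, changed sign, 7 of them by at least that spread: p53 targets (-0.10 without Ctrl replicate 3), antigen presentation (-0.12 without SNRPD2KO replicate 1), matrix and adhesion (-0.015 without Ctrl replicate 1, -0.0317 without SNRPD2KO replicate 1), abundant small RNAs (0.0349 with at least 1 CPM in 3 libraries, 0.0795 without Ctrl replicate 1) and bile duct markers (0.0087 without SNRPD2KO replicate 2). Over all single libraries left out these medians ran from -0.10 to 0.0685, -0.12 to 0.131, -0.0317 to 0.0867, -0.348 to 0.0795 and -0.0521 to 0.0087 in that order; the cause was not tested. Calls of single genes beside those already named were lost under some alternative for HLA-B, CD74, H2BC3, RPS28, RPS26 and CFTR, and gained for KRT7, KRT19 and GIPR. Depth sets a floor of 0.179 to 0.218 CPM. Of simulated 1.5-fold changes 59.7% were recovered, in a setting with far fewer changed genes than these data.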
